A study of Sus scrofa with 16 samples.

Results

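Uterine endothelium and brain stem of the same gilts were compared over 175 genes with a symbol, among 20733 rows of a pig oligonucleotide array. Both tissues came from 4 gilts (female pigs that have not farrowed), aged about 165 days, with no treatment named in the labels. The tissue names are those of the labels, and some titles give the second tissue only as brain. The pair met on the same array in gilts 1, 2 and 4, which makes 3 of the 16 arrays in all. Gilt 3 carried no such array and entered through liver and skeletal muscle. The members are all rows that the platform annotation gives 1 gene symbol. This rule uses no measured value, though it was chosen with earlier results of these data known.

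Endothelium is the cell layer that lines blood vessels; its cells are rich in caveolae, small membrane pits built on caveolin, and they carry integrins and antigen-presenting machinery. The uterine wall around such vessels also holds smooth muscle, stroma and a hormone-responsive epithelium. Brain stem is made of neurons, glia and myelinated tracts, with neurons that use GABA, glycine and neuropeptides as transmitters. In adult brain, genes of antigen presentation are usually kept low outside microglia and vessels.

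The study was made to test a pig oligonucleotide array on 4 unlike tissues, with uterine endothelium and brain stem beside liver and longissimus muscle. Each array set tissue against tissue of 1 gilt with the dyes Cy3 and Cy5. The 4 arrays of a gilt closed a loop, so each tissue was labelled once with each dye. Every difference below is uterine endothelium minus brain stem on a log2 scale, solved from all 4 ratios of the gilt's loop. The SE given with a mean difference is that of the fit, which pools the spread over gilts of all 4 tissues. It is not the SE of the 4 differences alone.

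Both the log base and the sign of the ratio were inferred. The sign, Cy5 over Cy3, is likely and not settled. It rests on 6 of 9 liver genes (QDPR, UOX, MBL2, PROC, CRP and CYP7A1) standing highest in liver, at 0.74 to 2.47 above the mean of a gilt's tissues. If the ratios run the other way, all directions below swap. Medians of the arrays were -0.01 to 0.01, and their SDs were 0.52 to 1.00. Signal over background is unknown because no intensities were used, so precision rests on having 4 gilts. The tissues of a gilt are separate samples of 1 animal, and the gilt is the replicate.

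The labels of the tissues could be checked against few defining markers. Of 22 endothelial markers on the list, 1 was among the named rows, CAV1, and it was higher in uterine endothelium. None of 11 markers of uterine smooth muscle and stroma was named, and 0 of 10 glial markers. Of 12 uterine epithelial markers only FOLR1 was named, and it too was higher in uterine endothelium. Of 15 neuronal markers 4 were named. CEND1 and GAD2 were lower in uterine endothelium, GLRB was higher, and GAD1 differed by -0.05 ± 0.05 (SE, n = 4; limma adjusted p = 0.44). The markers thus neither settle which uterine cells were collected nor give a glial share. In whole-tissue RNA, fewer cells of a type and less RNA per cell cannot be told apart.

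Of the 175 genes, 72 differed between the tissues: 29 were higher in uterine endothelium, 43 were lower, and 103 did not pass the test (limma, Benjamini-Hochberg adjusted p under 0.05 over all rows). These are 16.6% higher and 24.6% lower; without gilt 3, 26 genes were lower. Over all 20733 rows, 41.8% passed, 22.7% higher and 19.1% lower, so the 41.1% of named genes that passed lay close to the share of all rows. Without gilt 3, 5610 rows passed, 2266 of them lower, and without gilt 4, 2602 were lower. Differences of at least 1 in size were found for 13 genes that were higher and 3 that were lower. Among all rows they were found for 1568 that were higher and 479 that were lower. The median difference of the named genes was -0.07, against -0.02 for all rows, and the median SE of a row was 0.0913. A single sign in all 4 gilts was seen for 89 of the genes, or 50.9%, against 50.4% of all rows.

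**Figure D1:**
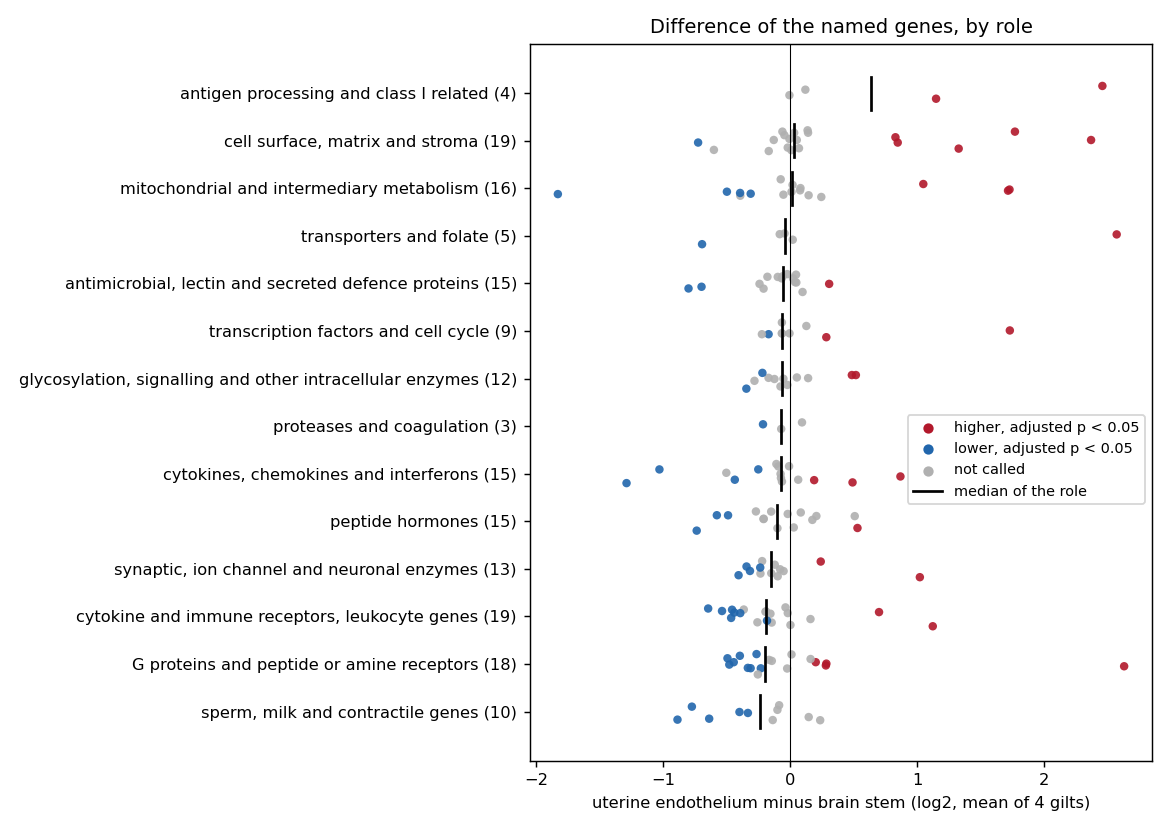
Difference between uterine endothelium and brain stem (log2, mean of 4 gilts) for the named genes, with 1 point a gene, grouped by a role assigned after the names were known and ordered by the role's median (black bar); 2 genes without a role are left out. Red points passed the test as higher in uterine endothelium, blue as lower and grey did not pass; the largest values, from 1.72 to 2.63, are GNAS, FOLR1, PSME1, S100A11, CAV1, JUN, TSPO and PGK2, and the lowest is ATP5G1 at -1.83.

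Of 19 genes of the cell surface, matrix and stroma, 5 were higher, 1 was lower and 13 did not pass, and their median difference was 0.03. Over all rows 22.7% were higher and 19.1% lower, and neither this nor any later group of genes was tested against these shares. The 5 that were higher were S100A11, CAV1, LAMP1, ITGB1 and SPRP. CAV1, caveolin-1, the coat protein of caveolae, differed by 2.03, 2.03, 1.72 and 1.30 in gilts 1, 2, 3 and 4. All 4 gilts lay above 1, and the mean was 1.77 ± 0.17 (SE; limma adjusted p = 1.9e-05). Its tissue value, relative to the mean of a gilt's 4 tissues, was 1.09 ± 0.35 in uterine endothelium and -0.68 ± 0.09 in brain stem (SD, n = 4). S100A11, a calcium-binding protein of epithelial, stromal and smooth muscle cells, differed by 1.97, 1.96, 2.29 and 3.26. Its mean was 2.37 ± 0.36 (limma adjusted p = 0.00037), with 1.91 ± 0.25 in uterine endothelium and -0.46 ± 0.70 in brain stem. The tissue values of S100A11 in brain stem were thus more spread over gilts than those in uterine endothelium. CAV1 and S100A11 were the only named members of 39 genes listed for uterine smooth muscle and stroma, and both were higher. The gene lists were chosen with earlier results of these data known, so such a count is no separate support.

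LAMP1, a heavily glycosylated protein of lysosomal membranes, was higher by 1.33 ± 0.19 (SE, n = 4; limma adjusted p = 0.00026), with gilt values of 1.00, 0.66, 1.88 and 1.76. SPRP, a small proline-rich protein of keratinising epithelia, was higher by 0.83 ± 0.09 (adjusted p = 3e-05), and its gilts spanned only 0.73 to 0.96. ITGB1, the beta-1 chain of integrins that bind cells to matrix, gave 0.19, 0.61, 1.53 and 1.06, a mean of 0.85 ± 0.21 (adjusted p = 0.0082). The call of ITGB1 was lost without gilt 4 (0.78). COL10A1, a collagen of hypertrophic cartilage, was lower, at -0.49, -0.63, -0.75 and -1.03, with a mean of -0.73 ± 0.09 (limma adjusted p = 0.00012). No gilt of COL10A1 overlapped 0, and its value was 0.56 ± 0.15 in brain stem, above the 3 other tissues, against -0.17 ± 0.12 in uterine endothelium.

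Of 4 genes of antigen processing and class I related proteins, 2 were higher and 2 did not pass. CD1.1, a lipid-presenting molecule, was at 0.12 (limma adjusted p = 0.16) and ULBP1, a ligand of the receptor NKG2D, at -0.01 (adjusted p = 0.96). PSME1 and PSMB8 were the only named genes of 46 listed for antigen processing and interferon response, and both were higher. That list was made with earlier results of these data known, so the count is no separate support. Over all rows 22.7% were higher. PSME1, a subunit of the PA28 activator that opens the proteasome, differed by 2.11, 1.98, 2.55 and 3.19 in gilts 1 to 4. Its mean difference was 2.46 ± 0.19 (SE; limma adjusted p = 6e-06), and all gilts lay far above 0. PSMB8, a catalytic subunit of the immunoproteasome that cuts peptides for class I presentation, differed by 0.72, 1.08, 1.00 and 1.79, with a mean of 1.15 ± 0.17 (adjusted p = 0.0003). PSME1 stood at 1.16 ± 0.19 in uterine endothelium and -1.30 ± 0.41 in brain stem, while PSMB8 stood at 0.75 ± 0.19 and -0.40 ± 0.33 in the same tissues (SD, n = 4). Both genes kept their sign on every array path between the tissues.

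GNAS, the stimulatory G protein alpha subunit that couples receptors to adenylyl cyclase, had the largest difference of the named genes. Its gilts gave 2.24, 1.99, 2.99 and 3.31, and the mean was 2.63 ± 0.27 (SE; limma adjusted p = 2.3e-05). Brain stem was the tissue that stood apart for GNAS, at -1.72 ± 0.44, with 0.91 ± 0.40 in uterine endothelium, 0.46 ± 0.23 in liver and 0.35 ± 0.35 in muscle. FOLR1, a folate receptor anchored on the surface of epithelial cells, differed by 2.90, 2.18, 2.09 and 3.12, a mean of 2.57 ± 0.22 (limma adjusted p = 1e-05). It stood at 1.05 ± 0.24 in uterine endothelium and -1.52 ± 0.37 in brain stem, with 1.15 ± 0.12 in liver. FOLR1 was also the only named gene whose 4 loop ratios did not sum to 0 by the test of loop closure (limma adjusted p = 0.041), a test that called no row without gilt 2 or gilt 3. The loop means of FOLR1 were 0.31, 0.22, 0.32 and 0.45 in gilts 1 to 4. A part that is equal on all 4 arrays of a loop cancels in the solved difference but not in a single direct array. An error of 1 array alone does not cancel, and the loop mean cannot tell these apart.

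Of 11 named genes listed for uterine epithelium and hormone response, 5 were higher, 1 was lower and 5 did not pass. Among all rows 22.7% were higher and 19.1% lower. Besides FOLR1, the higher genes were LHB (0.53 ± 0.10, SE), FGF9 (0.49 ± 0.09), PRLR (0.28 ± 0.07) and PAQR8 (0.28 ± 0.07), with limma adjusted p between 0.0015 and 0.0083. LHB encodes the beta chain of luteinising hormone, FGF9 a growth factor of stroma, PRLR the prolactin receptor and PAQR8 a membrane progestin receptor. FGF9 was uneven, with 0.86, 0.19, 0.28 and 0.62 in the 4 gilts. In a fit on the 4 differences alone FGF9, PRLR and PAQR8 did not pass (limma adjusted p = 0.053, 0.057 and 0.055). PRLR stood highest in liver, with -0.14 ± 0.05 in uterine endothelium, -0.42 ± 0.08 in brain stem and 0.47 ± 0.07 in liver (SD, n = 4). LHB also stood highest in liver, at 0.25 ± 0.14, with 0.12 ± 0.12 in uterine endothelium and -0.41 ± 0.12 in brain stem. The call of PAQR8 was lost without gilt 1 (0.24) or gilt 4 (0.26).

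ESR2, estrogen receptor beta, was the member that was lower, with -0.51, -0.39, -0.52 and -0.50 in the gilts. These values were among the tightest of the named genes, at a mean of -0.48 ± 0.05 (SE; limma adjusted p = 2.5e-05). Those that did not pass included OXTR, the oxytocin receptor, at -0.02 with a 95% interval of -0.21 to 0.16, and INHA, the inhibin alpha chain, at 0.51 with an interval of -0.07 to 1.09. The interval of INHA leaves room for a difference as large as that of LHB or larger.

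**Figure D2:**
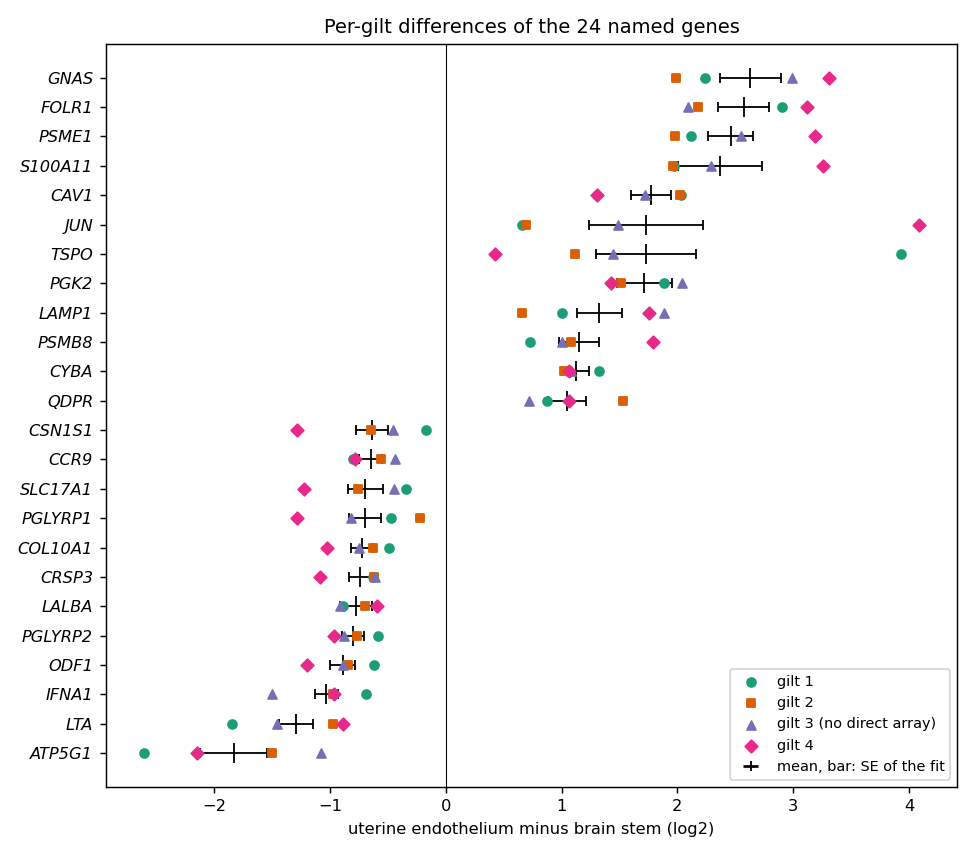
Difference between uterine endothelium and brain stem in each gilt (log2) for the 12 genes with the largest and the 12 with the lowest difference among those that passed the test with 1 sign in all gilts; symbols are gilts, and the black tick and bar are the mean and SE of the fit. Every symbol of a gene lies on the same side of 0; JUN in gilt 4 (4.08) and TSPO in gilt 1 (3.93) stand far from their other gilts.

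Genes of mitochondria and intermediary metabolism went both ways. TSPO, a cholesterol-binding protein of the outer mitochondrial membrane, gave 3.93, 1.11, 1.44 and 0.42, a mean of 1.73 ± 0.43 (SE; limma adjusted p = 0.0078). Gilt 1 decided the size of TSPO, and without it the difference was 0.99. A fit on the 4 differences alone, without the spread of the other tissues, did not call TSPO (adjusted p = 0.089). PGK2, a phosphoglycerate kinase known from sperm precursors in mammals, gave 1.88, 1.51, 2.04 and 1.43, a mean of 1.72 ± 0.23 (adjusted p = 0.00017). PGK2 stood highest in muscle, at 2.31 ± 0.36, with -0.19 ± 0.29 in uterine endothelium and -1.91 ± 0.29 in brain stem. A close paralog of this gene, PGK1, is made in all tissues, and whether the probe told them apart was not tested. QDPR, which recycles tetrahydrobiopterin for amine synthesis, was higher at 0.88, 1.53, 0.72 and 1.06, a mean of 1.05 ± 0.16 (limma adjusted p = 0.0004).

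ATP5G1, a subunit of the ring of ATP synthase, was the lowest named gene, at -2.60, -1.50, -1.08 and -2.14 in gilts 1 to 4. The mean was -1.83 ± 0.29 (SE; limma adjusted p = 0.00045), and no gilt came near 0. ATP5G1 stood at -0.68 ± 0.07 in uterine endothelium and 1.15 ± 0.64 in brain stem, and at -0.87 ± 0.21 in liver and 0.39 ± 0.41 in muscle. ACADS, which oxidises short-chain fatty acids, was lower by far less, at -0.39 ± 0.13 (adjusted p = 0.029), and its call was lost without gilt 1 (-0.43), gilt 2 (-0.31) or gilt 3 (-0.43). Of the 4 named genes among 63 listed for mitochondria and energy metabolism, TSPO and PGK2 were thus higher and ATP5G1 and ACADS lower.

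JUN, an immediate early transcription factor of the AP-1 complex, gave 0.66, 0.69, 1.49 and 4.08, the widest spread over gilts of all named genes. Its mean was 1.73 ± 0.49 (SE of the fit; limma adjusted p = 0.016), while the SD of the 4 differences of JUN was 1.61. Gilt 4 decided its size: without gilt 4 JUN differed by 0.95 and still passed, and without gilt 3 it differed by 1.81 and no longer passed (adjusted p = 0.060). JUN was at 0.88 ± 0.63 in uterine endothelium and -0.85 ± 1.06 in brain stem, so the spread lay more in brain stem. Muscle was the highest tissue for JUN, at 1.02 ± 0.34, and liver the lowest, at -1.05 ± 0.45. KLF4, a zinc finger factor of epithelia and endothelium, gave 0.15, 0.17, 0.62 and 0.21, a mean of 0.28 ± 0.09 (limma adjusted p = 0.029). Its call was lost without gilt 2 (0.32), gilt 3 (0.17) or gilt 4 (0.31). KLF4 stood highest in muscle, at 1.00 ± 0.11, with -0.16 ± 0.16 in uterine endothelium. JUN and KLF4 were the only 2 named genes of their list, and neither passed without gilt 3.

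Leukocyte genes were split, beside 22.7% higher and 19.1% lower over all rows. Of 12 named genes listed, 3 were higher (CYBA, ITGB1 and TYROBP), 4 were lower (PGLYRP2, PGLYRP1, TLR10 and ITGA2B) and 5 did not pass; without gilt 4 only 1 was higher. CYBA, the small membrane subunit of the phagocyte NADPH oxidase, differed by 1.32, 1.03, 1.08 and 1.07. This was one of the steadiest large differences, with a mean of 1.12 ± 0.12 (SE; limma adjusted p = 3e-05). CYBA stood at 0.81 ± 0.17 in uterine endothelium and between -0.31 and -0.18 in brain stem, liver and muscle. TYROBP, the adaptor of receptors on natural killer and myeloid cells, gave 0.39, -0.09, 0.97 and 1.53, a mean of 0.70 ± 0.25 (limma adjusted p = 0.040). The gilts of TYROBP crossed 0, and its call was lost without gilt 1 (0.80), gilt 3 (0.61) or gilt 4 (0.42). CD4, the other named leukocyte marker, differed by -0.02 with a 95% interval of -0.19 to 0.15.

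The peptidoglycan recognition proteins, which bind bacterial cell walls, were lower. PGLYRP2 gave -0.59, -0.77, -0.88 and -0.96, a mean of -0.80 ± 0.10 (SE, n = 4; limma adjusted p = 8e-05). PGLYRP1 was more uneven, at -0.47, -0.22, -0.81 and -1.29, with a mean of -0.70 ± 0.14 (adjusted p = 0.0019). Both stood highest in brain stem, PGLYRP2 at -0.20 ± 0.13 in uterine endothelium and 0.60 ± 0.10 in brain stem, and PGLYRP1 at -0.26 ± 0.22 and 0.43 ± 0.24 in these tissues. TLR10, a Toll-like receptor of B cells in human, was lower by 0.54 on the log2 scale (-0.54 ± 0.10, adjusted p = 0.0015). ITGA2B, the platelet integrin alpha chain, was lower at -0.46 ± 0.06 (adjusted p = 0.0001), and LY49, a receptor of the killer cell lectin family, at -0.47 ± 0.10 (adjusted p = 0.0025).

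Of 13 named members of the list of cytokines, interferons and their receptors, 1 was higher, 6 were lower and 6 did not pass. Among all rows 22.7% were higher and 19.1% lower. The balance depended on the grouping: of the 15 cytokines, chemokines and interferons with that role among the named genes, 3 were higher (IL1A, FGF9 and TNFSF8), 4 were lower and 8 did not pass. LTA, the cytokine lymphotoxin alpha, gave -1.85, -0.97, -1.45 and -0.88 in the 4 gilts, with a mean of -1.29 ± 0.15 (SE; limma adjusted p = 5.2e-05). IFNA1, an alpha interferon, gave -0.69, -0.97, -1.50 and -0.97, a mean of -1.03 ± 0.10 (adjusted p = 2.1e-05). For both genes brain stem was the highest of the 4 tissues, LTA at -0.12 ± 0.25 in uterine endothelium and 1.17 ± 0.22 in brain stem, and IFNA1 at -0.12 ± 0.19 and 0.91 ± 0.16. Alpha interferons are a family of near-identical genes, and which of them the probe measured is uncertain. IFNB1, the beta interferon, did not pass, at -0.06. IFN-DELTA-1, a pig trophoblast interferon, did not pass either, with -0.22, -1.34, -1.05 and 0.60 in the gilts, though it passed without gilt 4 (-0.87).

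IL1A, the alarm cytokine interleukin-1 alpha, was the member that was higher, at 0.67, 1.14, 0.95 and 0.71. Its mean was 0.87 ± 0.09 (SE; limma adjusted p = 2.1e-05), and its highest value was in liver, with 0.05 ± 0.13 in uterine endothelium, -0.82 ± 0.13 in brain stem and 0.87 ± 0.05 in liver. CCR9, a chemokine receptor that guides lymphocytes to the gut, was lower, with -0.80, -0.56, -0.44 and -0.79, a mean of -0.65 ± 0.10 (adjusted p = 0.00039). IL17A (-0.44), IL12RB2 (-0.39) and IL21 (-0.25), a cytokine of Th17 cells, a chain of the interleukin-12 receptor and a cytokine of follicular helper T cells, were the other members that were lower. The call of IL21 was lost without gilt 1 (-0.26).

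Among 9 named genes listed as neuronal and glial, 3 were lower (POMC, GAD2 and CEND1), 1 was higher (GLRB) and 5 did not pass. Over all rows 19.1% were lower and 22.7% higher, and the 9 genes were not tested against these shares. POMC, the precursor of corticotropin, melanocortins and beta-endorphin, differed by -0.63, -0.71, -0.49 and -0.48. These values barely varied over gilts, with a mean of -0.58 ± 0.09 (SE; limma adjusted p = 0.00048), and POMC stood at -0.22 ± 0.11 in uterine endothelium and 0.36 ± 0.10 in brain stem. GAD2, which makes the inhibitory transmitter GABA, gave -0.26, -0.23, -0.33 and -0.81, a mean of -0.41 ± 0.11 (adjusted p = 0.013). The call of GAD2 was lost without gilt 3 (-0.43). CEND1, which drives neuronal precursors out of the cell cycle, was lower at -0.32 ± 0.07 (adjusted p = 0.0030).

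GLRB, the beta subunit of the inhibitory glycine receptor, gave 0.50, 0.26, -0.02 and 0.23, a mean of 0.24 ± 0.08 (SE, n = 4; limma adjusted p = 0.038). Its call was lost without gilt 1 (0.16), gilt 2 (0.24) or gilt 4 (0.24). The row of GLRB follows one whose tissue values reach 1.13 in size and whose difference was 0.51. Any part of that neighbouring row was not tested. MAOA, the mitochondrial monoamine oxidase that breaks down serotonin and noradrenaline, was higher in uterine endothelium, at 0.25, 1.16, 1.86 and 0.81. The mean of MAOA was 1.02 ± 0.21 (adjusted p = 0.0026), and brain stem was at -0.49 ± 0.20, with 0.53 ± 0.48 in uterine endothelium. Differences of neuronal genes were small beside those of CAV1 or PSME1: the lowest of the 9 was POMC.

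Of 15 peptide hormones, 1 was higher, 3 were lower and 11 did not pass. Of 18 G proteins and receptors of peptides, amines and hormones, 4 were higher, 8 were lower and 6 did not pass. Without gilt 3 the counts of higher and of lower genes were both 3. All rows gave 22.7% higher and 19.1% lower, and neither group was tested against these shares. CRSP3, a calcitonin receptor-stimulating peptide found in pig, gave -0.63, -0.61, -0.61 and -1.09, a mean of -0.74 ± 0.10 (SE; limma adjusted p = 0.00016). Gilts 1 to 3 of CRSP3 were nearly equal and gilt 4 was lower. Both named somatostatin receptors were lower: SSTR5 at -0.34, -0.47, -0.45 and -0.52, and SSTR2 at -0.03, -0.30, -0.38 and -0.53. SSTR5 varied little, with a mean of -0.44 ± 0.05 (adjusted p = 2.6e-05), and stood at -0.15 ± 0.05 in uterine endothelium and 0.30 ± 0.02 in brain stem. The call of SSTR2 (-0.31 ± 0.10, limma adjusted p = 0.033) was lost without gilt 2 (-0.32), gilt 3 (-0.29) or gilt 4 (-0.24). MC1R, the melanocortin receptor of pigment cells, was lower at -0.49 ± 0.17 (adjusted p = 0.037), and its call was lost without gilt 2 (-0.42) or gilt 3 (-0.44).

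SLC17A1, a renal transporter of phosphate and urate, gave -0.35, -0.76, -0.45 and -1.23, with a mean of -0.69 ± 0.15 (SE, n = 4; limma adjusted p = 0.0037). Of 10 named genes known from tissues that were not sampled, 7 were lower, 1 was higher (PGK2) and 2 did not pass. Without gilt 3 only 4 of them were lower and 2 were higher. Over all rows 19.1% were lower and 22.7% higher, and the 10 genes were not tested against these shares. ODF1, a protein of the outer dense fibres of sperm tails, was lower at -0.62, -0.85, -0.89 and -1.20, a mean of -0.89 ± 0.11 (limma adjusted p = 7.5e-05). Brain stem was the only tissue in which ODF1 stood above 0, at 0.67 ± 0.19, with -0.22 ± 0.11 in uterine endothelium. LALBA, the milk protein alpha-lactalbumin, gave -0.89, -0.70, -0.91 and -0.60, a mean of -0.77 ± 0.14 (adjusted p = 0.0012). Its row follows that of CRP, whose tissue values are large, and any part of the neighbouring row was not tested.

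CSN1S1, the milk casein alpha-S1, gave -0.17, -0.64, -0.45 and -1.29, a mean of -0.64 ± 0.14 (SE, n = 4; limma adjusted p = 0.0034), and without gilt 4 it was -0.42. On the 4 differences alone CSN1S1 did not pass (adjusted p = 0.066). Unlike ODF1, CSN1S1 stood highest in muscle (0.43 ± 0.10), with -0.46 ± 0.25 in uterine endothelium and 0.18 ± 0.24 in brain stem. SRY, the testis-determining gene of the Y chromosome, had the smallest difference among the genes called lower, at -0.17 ± 0.06 (limma adjusted p = 0.034). All animals were labelled female, so for SRY a call at this size came from a probe whose gene the animals should lack; the call was lost without gilt 2 (-0.14), gilt 3 (-0.14) or gilt 4 (-0.17).

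Of 9 named liver genes, QDPR was higher, PGLYRP2 and VNN1 were lower and 6 did not pass. VNN1, a pantetheinase, was at -0.50, and its call was lost without gilt 2 (-0.45), gilt 3 (-0.51) or gilt 4 (-0.41). CRP, the acute phase protein of hepatocytes, gave 0.29, 0.06, -0.76 and -0.43, a mean of -0.21 with a 95% interval of -0.63 to 0.21. None of the 3 named muscle genes passed (MYH7, MYOD1 and LMCD1), with differences between -0.01 and 0.15. Over the 103 genes that did not pass, the differences ran from -0.60 for DMRT1 to 0.51 for INHA. DMRT1, a factor of testis development, gave -0.81, 0.34, -0.25 and -1.68, so its gilts lay on both sides of 0 and its interval ran from -1.23 to 0.03; without gilt 2 it passed, at -0.91.

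The direct arrays were compared with the paths that reach brain stem from uterine endothelium through liver and muscle. Across rows, which are not independent replicates, direct and indirect differences correlated with r = 0.78 in gilt 1, 0.63 in gilt 2 and 0.80 in gilt 4. In gilt 3, the path through muscle and the path through liver correlated with r = 0.80. Direct ratios as deposited correlated with r = 0.75 between gilts 1 and 2, which had the same dyes, and with r = -0.73 and -0.71 between each of these and gilt 4, which had them swapped. Of the 72 genes that passed, 71 had the same sign in the direct and the indirect mean over gilts 1, 2 and 4. In 62 all 3 direct arrays had the sign of the fit, and in 64 both paths of gilt 3 had 1 sign. All 8 paths, the 3 direct arrays, their 3 indirect paths and the 2 of gilt 3, had 1 sign in 35 genes, of which 17 were higher and 18 lower. The fit used these arrays, so the counts describe how evenly the difference was spread over paths and are no separate test.

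GNAS differed by 2.20, 2.22 and 3.80 on the direct arrays of gilts 1, 2 and 4 and by 2.33, 1.29 and 1.83 on their indirect paths. The means were 2.74 direct and 1.82 indirect, a gap of 0.92 ± 0.42 (SE; limma adjusted p = 0.999). ATP5G1 showed -3.10, -1.85 and -1.85 directly and -1.11, -0.43 and -3.04 indirectly. All of these values had the sign of the fit, for GNAS above 0 and for ATP5G1 below it. TSPO gave 3.99, 0.97 and 1.12 on the direct arrays, but 3.78, 1.53 and -1.66 on the indirect paths, so in gilt 4 the routes had opposite signs. TNFSF8, a ligand of activated T cells, was the only gene that passed with means of opposite sign, 0.32 direct and -0.11 indirect, and its difference (0.19 ± 0.06, SE; limma adjusted p = 0.028) was lost without gilt 1 (0.22), gilt 2 (0.19) or gilt 4 (0.13).

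The largest gaps were seen for PROC, QDPR and CYP8B1. PROC, the anticoagulant protein C, gave -0.13, -0.15 and -0.57 directly and 1.89, 1.04 and 0.49 indirectly, a gap of -1.43 ± 0.25 (SE, n = 3). QDPR averaged 0.90 directly and 1.94 indirectly, and CYP8B1, a hydroxylase of bile acid synthesis, 0.38 and -0.54. In liver PROC stood at 2.07 ± 0.20, QDPR at 1.38 ± 0.10 and CYP8B1 at 0.15 ± 0.25 (SD, n = 4). CRP, at 2.47 ± 0.28 in liver, had a gap of -0.29. The part of liver levels in the gaps was not tested. The median absolute gap of the 9 liver genes was 0.42, against 0.167 for the named genes and 0.152 for all rows. A test of the gap over the 3 gilts called 0 rows (0% of 20733, limma), with 492 rows and 9 named genes at an unadjusted p under 0.05. The gap of a gilt is, up to sign, the sum of its 4 loop ratios. This test and that of loop closure are therefore not separate checks. The sign turns in gilt 4, whose direct array had the dyes swapped, so a steady dye part partly cancels in the mean gap. The 0 calls from 3 gilts thus do not show that both routes gave equal values. The test of loop closure called 163 rows, or 0.786%, and 4377 at an unadjusted p under 0.05. Leaving out gilt 2 or gilt 3 brought the closure count to 0, and leaving out gilt 4 to 6.

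**Figure D3:**
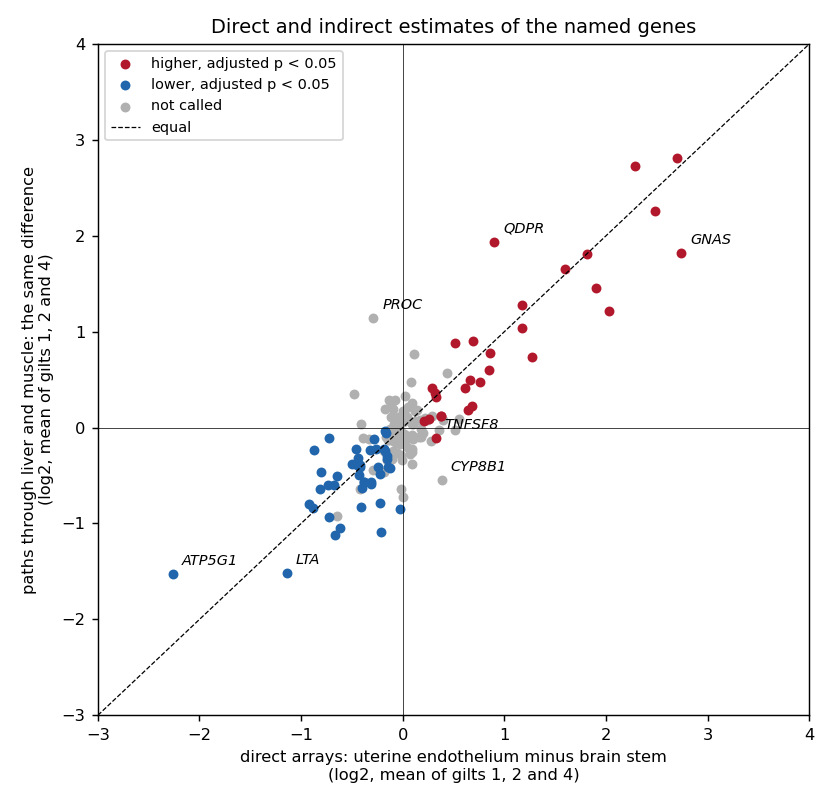
Mean difference between uterine endothelium and brain stem on the direct arrays (x axis) and on the paths through liver and muscle (y axis) in gilts 1, 2 and 4, on a log2 scale, with 1 point for each of the 175 genes. Points near the dashed line have equal estimates; PROC (-0.29 direct, 1.14 indirect), QDPR and CYP8B1 lie furthest from it, and TNFSF8 is the called gene whose 2 estimates have opposite signs.

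Liver and muscle of the same gilts were used to show on which side each difference lay. Against the mean of liver and muscle, uterine endothelium was higher in 17 and lower in 42 of the 175 genes (33.7% called). Over all rows 28.4% were called in this contrast, 13.9% higher and 14.5% lower. Brain stem was higher than that mean in 32 genes and lower in 51 (47.4% called), and over all rows 44.5% were called, 19.1% higher and 25.3% lower. Both contrasts share liver and muscle, and the difference between them is the difference described above. In what follows, a tissue departs from, or stands above or below, the mean of liver and muscle, not each of them. Alone means that only the contrast of that tissue passed. The split below was made for the named genes only, so its counts have no share over all rows beside them.

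Of the 29 genes higher in uterine endothelium, brain stem alone departed from liver and muscle in 10, uterine endothelium alone in 7, both in 10 and neither in 2. The count for both was 6 without gilt 3 or without gilt 4, and that for neither was 1 without gilt 1 and 4 without gilt 2. GNAS was one of the first kind: brain stem lay -2.12 from the mean of liver and muscle (limma adjusted p = 2.5e-05), and uterine endothelium 0.51 from it (adjusted p = 0.12). QDPR and TSPO were also of this kind, yet their brain stem values (-0.79 and -1.09) lay close to those of muscle (-0.85 and -0.99). Liver was the highest tissue for both (1.38 and 1.43). S100A11 (2.63), CYBA (1.06), PSMB8 (0.93), MAOA (0.55), FGF9, TYROBP and PAQR8 were the genes in which uterine endothelium alone stood above the mean of liver and muscle. For MAOA the split was narrow: uterine endothelium was at 0.55 (limma adjusted p = 0.044) and brain stem at -0.47 (adjusted p = 0.055). FOLR1, PSME1, CAV1, LAMP1 and SPRP had uterine endothelium above and brain stem below the mean of liver and muscle. For PSME1 these departures were 1.09 (limma adjusted p = 0.00075) and -1.37 (adjusted p = 6e-05). For FOLR1 uterine endothelium was not above liver (1.05 against 1.15), and for LAMP1 it was close to liver (0.59 against 0.52). PGK2, IL1A, KLF4, PRLR and TNFSF8 were lower in both tissues than the mean of liver and muscle, and lower still in brain stem. Uterine endothelium was nonetheless above liver for KLF4 (-0.16 against -0.40) and above muscle for IL1A (0.05 against -0.09). For PGK2 it was level with liver (-0.19 against -0.21).

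Of the 43 genes lower in uterine endothelium, brain stem alone departed in 21, uterine endothelium alone in 6, both in 3 and neither in 13. Brain stem also departed more often over all rows, in 44.5% against 28.4% for uterine endothelium. Whether the split of the named genes differs from that of all rows was not tested. The count for neither was 8 without gilt 2, 4 without gilt 3 and 4 without gilt 4, and it was 7 with the difference centred on its most frequent value. ATP5G1, ODF1, PGLYRP2, CRSP3, COL10A1, POMC and SSTR5 were among the genes in which brain stem alone stood above liver and muscle, by 0.37 for SSTR5 to 1.39 for ATP5G1. LTA and IFNA1 were higher in both tissues than the mean of liver and muscle, by 0.41 and 0.28 in uterine endothelium and by 1.69 and 1.31 in brain stem. ESR2 was the gene with uterine endothelium below (-0.28, limma adjusted p = 0.00069) and brain stem above (0.20, adjusted p = 0.0024). CCR9 and CSN1S1 were among the 6 in which uterine endothelium alone stood below liver and muscle.

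**Figure D4:**
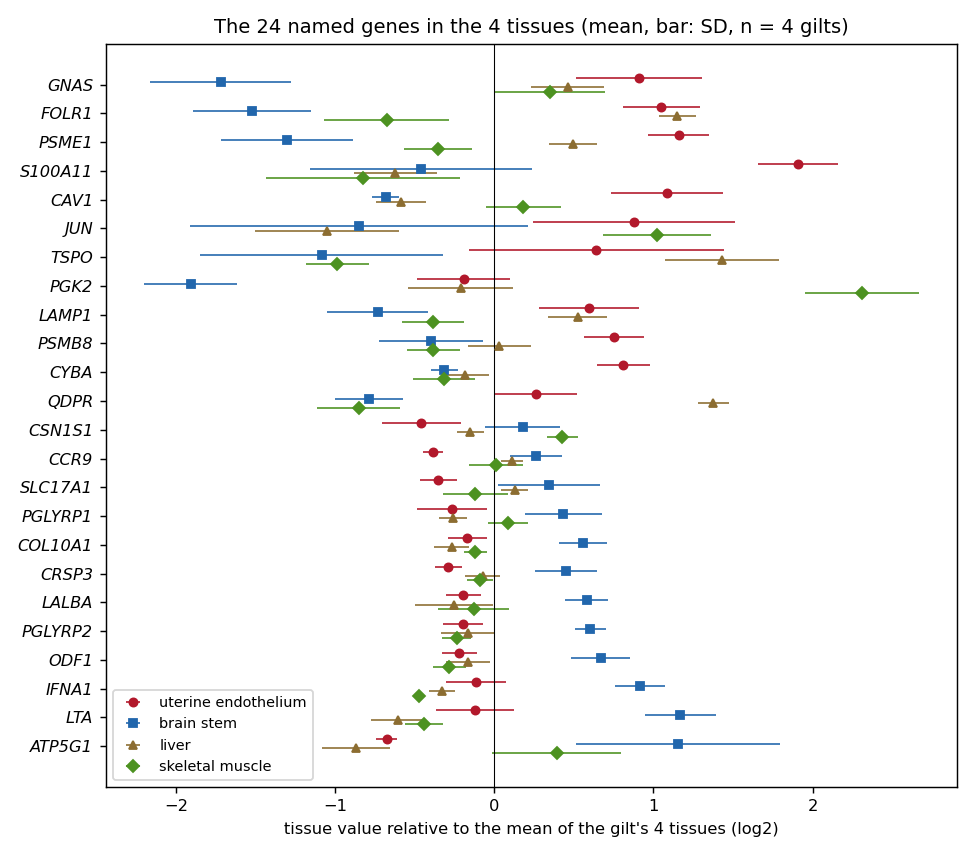
Tissue values (log2, relative to the mean of a gilt's 4 tissues) of the same 24 genes in uterine endothelium, brain stem, liver and skeletal muscle; points are means and bars SDs over 4 gilts. Brain stem stands apart below the other tissues for GNAS (-1.72) and PGK2 (-1.91) and above them for LTA (1.17) and IFNA1 (0.91), while S100A11 (1.91) and CYBA (0.81) stand apart in uterine endothelium.

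The 4 gilts gave like profiles of the difference, with r between 0.75 and 0.83 over all rows for the 6 pairs of gilts. The SD of the difference over rows was 0.69, 0.61, 0.79 and 0.93 in gilts 1 to 4, so gilt 4 was the most spread. JUN (SD 1.61 over gilts) and TSPO (1.53) varied most among the named genes. ASIP, the agouti signalling protein, had 4 probes with mean differences of 0.03, 0.50, 0.06 and 0.21. These were averaged to 0.20 ± 0.06 (SE; limma adjusted p = 0.025), and the call was lost without gilt 2 (0.19), gilt 3 (0.22) or gilt 4 (0.13). Of the 72 genes that passed, 42 passed without each of the gilts in turn, 19 of them higher and 23 lower. The fit on the 4 differences alone kept 39 of the 72 calls and lost 33. Besides those given above, the lost calls included JUN (limma adjusted p = 0.10), ITGB1 (0.052), TYROBP (0.12), KLF4 (0.11), GAD2 (0.068), GLRB (0.15), IL21 (0.069), SSTR2 (0.084), SRY (0.18), TNFSF8 (0.15) and ASIP (0.18). Not all of the 33 are named here. The genes that passed in all 15 alternative fits were CAV1, CYBA, FOLR1, GNAS, ODF1, PGK2 and PSME1.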

How the data were processed

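Total RNA of 4 tissues of 4 gilts was amplified, dye-coupled and hybridised in pairs to 16 arrays, per the labels' protocols. The authors' deposited table held 1 value per row and array, read here as log2 ratios of Cy5 over Cy3. That base was inferred from the greatest ratio, 10.4 in size, which stands for 1372-fold on a log2 scale but for 33586-fold on a natural log scale. How the arrays were scanned, background-corrected and normalized is not given in the sources. The table had 20736 rows and no missing value.

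From it, least squares turned each gilt's 4 ratios into 4 tissue values with mean 0. In gilts 1, 2 and 4 the difference weights the direct array most, and in gilt 3 it is the mean of 2 paths. limma 3.58.1 (R 4.3.3) fitted the 16 values per row by tissue and gilt, gilt being a fixed block since the labels tie a loop's tissues to 1 animal, with Benjamini-Hochberg adjustment at 0.05 over 20733 rows, the 4 ASIP probes being averaged first. All tests were two-sided. The steps were tested on simulated data. Symbols came from the platform annotation (178 probes, 175 genes, all matched by gene identifier to RefSeq); 20558 rows had no symbol here. No genome or sequence was used.

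The members and gene lists were chosen with earlier results of these data known. Genes described individually are the 12 largest and 12 lowest differences that passed with 1 sign in all gilts, the 3 largest gaps between direct and indirect estimates, genes whose estimates have opposite signs, and list members; SRY, LY49, SSTR5, MAOA, DMRT1 and SPRP were chosen after their values were seen. The contrasts with liver and muscle, the gap test and the list counts without single gilts were added after seeing the data. Alternatives covered the block, the dye, the paths, array centring and scaling, moderation, rows of low SD, rows after a strong row and leaving out each gilt.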

Additional observations from a re-analysis of the deposited data

Results flagged for a closer look

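In 7 of 102 differences tested for 1 gilt far from the other 3, the gap to the nearest other gilt, as a share of the range over gilts, was above Dixon's 95% critical value for 4 samples; chance flags about 1 in 20. All are uterine endothelium minus brain stem. CRSP3 in gilt 4 was -1.09, against -0.63 to -0.61 in the other gilts (0.964). CYP8B1 in gilt 3, the gilt with no direct array, was -0.13 against 0.13 to 0.16 (0.900). IFNB1 in gilt 3 was 0.00194 against -0.09 to -0.08 (0.892). KLF4 in gilt 3 was 0.62 against 0.15 to 0.21 (0.872).

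ACADS in gilt 2 was -0.63 against -0.35 to -0.30 (0.844). ESR2 in gilt 2 was -0.39 against -0.52 to -0.50 (0.835), a small deviation in a tight gene. GAD2 in gilt 4 was -0.81 against -0.33 to -0.23 (0.833). Their causes were not tested.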

How the results depend on the processing

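All 72 genes kept the sign of the difference in every fit except TNFSF8, which was -0.0532 on the indirect paths alone (limma adjusted p = 0.86). With gilt as no block or as a random block, 92 genes and 10729 rows were called, against 72 and 8661 in the paired fit, and all 72 calls were kept; the gilt's tissue values sum to 0, so the block only takes degrees of freedom. Fitting the 16 ratios themselves, dye included, called 81 genes. The fits on fewer values called fewer: the 4 differences alone 39 genes (16 higher, 23 lower) and 4718 rows (3029 and 1689), the direct arrays alone 15 genes (9 and 6) and 1587 rows (1157 and 430), and the indirect paths alone 24 genes (11 and 13) and 2885 rows (2002 and 883). Without single gilts, 52 to 63 genes were called (22 to 26 higher, 26 to 40 lower), 5610 to 7846 rows (3344 to 4451 higher, 2266 to 3395 lower) and 0 to 131 rows for loop closure; the lowest counts of lower calls came without gilt 3. Higher rows made up 54.3% of calls, and 72.9% on direct arrays alone, 69.4% on indirect paths alone and 64.2% on the 4 differences; centring each gilt's difference on its most frequent value gave 63.5% (34 genes higher, 35 lower), and arrays scaled to 1 spread 53.2% (25 and 41). These 2 scalings ended the calls of 8 and 7 genes, among them MC1R, SSTR2 and SRY under the first and GLRB, KLF4, PRLR, SRY and TNFSF8 under the other. Leaving out genes whose row follows a strong row, one whose tissue values reach 1 in size, left 67. Dim spots could not be told from bright ones.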
